A study of Mus musculus with 6 samples.

Results

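Cathepsins are the main proteases of endosomes and lysosomes. Most are cysteine proteases of the papain family, a pair (cathepsins D and E) are aspartic proteases, and they are made as inactive precursors that are cleaved in acid compartments. In thymic epithelial cells (TEC) they are known for cutting the invariant chain (CD74), which occupies the groove of MHC class II molecules, and for producing the self-peptides shown to developing T cells, with cathepsin L associated with the cortical and cathepsin S with the medullary epithelium and with dendritic cells. The 9 genes described here, Ctsb, Ctsc, Ctsd, Ctse, Ctsh, Ctsk, Ctsl, Ctss and Ctsz, were taken by name from a table of 52636 gene rows of the mouse genome, and each of the 9 was counted and passed the filter on low counts that left 32496 genes for testing.

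The study sorted 2 populations of medullary TEC (mTEC) from thymi of C57BL/6 mice at 6 weeks of age, with 3 libraries of each. Both were positive for the lectin UEA1, low in MHC class II and negative for Sca1 and CD63, and for CD80 the labels give negative where the study's text gives low. The tuft-like cells carried CD117 and CD66a on their surface. The non-tuft-like cells lacked both proteins, so this group is defined by what is missing, and the study describes it as a likely mixture. The labels do not say how many mice entered a library or whether the replicates were separate sorts, so the p-values measure the spread between these libraries, which may be technical. As a check of the sort, all 12 tuft cell genes listed for it were higher in the tuft-like libraries, with Dclk1, a kinase that marks tuft cells, at 1584 ± 290 against 28.5 ± 7.27 reads scaled to library size (CPM; mean ± SD, n = 3 libraries each, as throughout).

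The reads counted on genes ranged from 20097617 to 48369825 a library. Levels are given as CPM normalised by TMM, a scaling that assumes most genes do not differ, and a positive fold change means a higher level in tuft-like mTEC. Fold changes were tested with edgeR's quasi-likelihood test, and a gene is called where its false discovery rate (FDR, Benjamini-Hochberg over the 32496 genes) lies below 0.05. Reads that fell on no annotated gene made up 19.7% of all reads in tuft-like replicate 3 and 61.6% in tuft-like replicate 1. The non-tuft-like libraries lay in between at 34.4% to 52.5%. Ambiguous and multiply aligned reads are not part of these shares. With 3 libraries a group, permuting the libraries exactly for 1 gene cannot give a two-sided p below 0.10, which is the value of each of the 6 cathepsin genes whose libraries did not overlap (0.15 after Benjamini-Hochberg adjustment over the 9).

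The 9 genes fall into a pair of catalytic classes, which their coding sequences show. The 45 bases around the catalytic codon are printed below for the 3 genes that changed and for the other genes of their class that results below are set against, as the coding strand of the transcripts of GENCODE M21 (mm10). Capitals mark the codon of the catalytic cysteine, found by translating each coding sequence and searching for cysteine, glycine, serine or alanine, the catalytic cysteine and then tryptophan or tyrosine, which occurred 1 time in each of the 7 cysteine cathepsins.
Ctsc: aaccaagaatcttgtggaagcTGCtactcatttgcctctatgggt
Ctsh: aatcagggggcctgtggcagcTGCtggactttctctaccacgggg
Ctsl: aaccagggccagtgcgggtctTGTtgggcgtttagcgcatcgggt
Ctss: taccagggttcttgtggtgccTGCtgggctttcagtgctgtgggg
Ctsb: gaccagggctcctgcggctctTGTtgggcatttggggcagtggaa
Ctsz: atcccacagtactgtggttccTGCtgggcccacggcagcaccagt
For the aspartic class, the capitals mark the aspartate codon of the first of 2 matches to aspartate, threonine, glycine and then serine or threonine.
Ctsd: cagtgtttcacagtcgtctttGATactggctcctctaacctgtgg
The stretch lies in exons 5 and 6 of 7 of Ctsc (chr7:88302294-88308050, plus strand), exons 5 and 6 of 12 of Ctsh (chr9:90064252-90064545, plus), exons 4 and 5 of 8 of Ctsl (chr13:64367054-64367865, minus), exons 4 and 5 of 8 of Ctss (chr3:95543157-95545371, plus), exons 4 and 5 of 10 of Ctsb (chr14:63135696-63136424, plus), exon 2 of 6 of Ctsz (chr2:174438175-174438219, minus) and exon 3 of 9 of Ctsd (chr7:142383458-142383502, minus). Where a pair of exons is named the coordinates span the intron between them. Over these 45 bases Ctsl was identical to Ctsk at 35 positions, to Ctsb at 33, to Ctss at 28, to Ctsh at 24, to Ctsc at 23 and to Ctsz at 22, with the stretches set side by side without gaps.

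The make-up of the cathepsin transcripts differed between the populations. Ctsc rose 3.23-fold in tuft-like mTEC, while Ctsl fell 3.93-fold and Ctsh 3.58-fold. Ctsd was 2.82-fold lower and missed the threshold (edgeR FDR 0.0546). Ctsb, Ctss, Ctsz, Ctse and Ctsk were not called. So 3 of the 9 genes passed the test, against 2.11% of all genes tested, with 1 higher (1.16% of all genes) and 2 lower (0.951% of all genes), and among genes with a mean above 100 CPM, where the test calls more, the share was 11.5% against 3 of the 6 cathepsins at that level. The ranges of the 2 populations were separate for 6 of the 9 genes, against 16% of all genes tested and 31.5% of those above 100 CPM (5 of the 6 cathepsins at that level). Of these 6 genes 5 were lower in tuft-like mTEC, against 8.85% of all genes, and 1 was higher, against 7.18%. In these bulk samples, fewer cells that express a gene and less of its RNA per cell cannot be told apart.

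**Figure D1:**
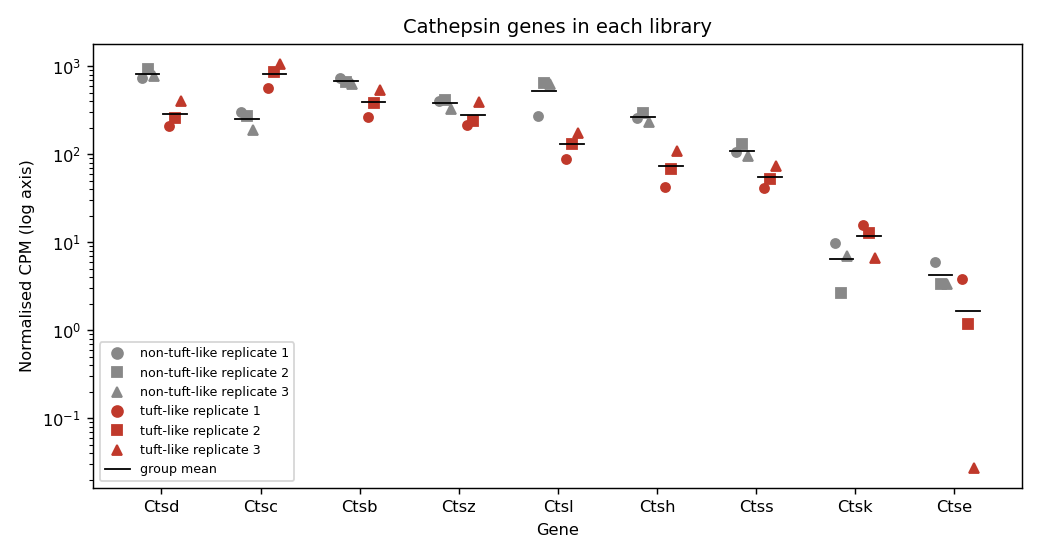
Normalised CPM (log axis) of the 9 cathepsin genes in each of the 6 libraries, with grey symbols for non-tuft-like and red symbols for tuft-like mTEC, a symbol shape for each replicate number and a line at the group mean. The tuft-like libraries sit above the non-tuft-like ones for Ctsc and below them for Ctsd, Ctsb, Ctsl, Ctsh and Ctss, while Ctsz, Ctsk and Ctse overlap.

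Ctsc (ENSMUSG00000030560, chr7:88278085-88310888 of mm10) encodes cathepsin C, or dipeptidyl peptidase I, which removes dipeptides from the start of proteins and activates the serine proteases of granules in immune cells. Its CPM was 303.2, 271.5 and 188.1 in the non-tuft-like libraries (values are in the order of replicates 1, 2 and 3 throughout) and 562, 849 and 1054 in the tuft-like ones. The lowest tuft-like library was well above the highest non-tuft-like one. This gave a log2 fold change of 1.69 (standard error 0.35, 95% interval 0.90 to 2.48, edgeR FDR 0.0382). With 1 library left out at a time the change stayed between 1.43 and 1.91, but the call held without tuft-like replicate 1 and was lost without any 1 of the other 5 libraries (edgeR FDR up to 0.236). None of its exonic bases lies in an exon of another annotated gene.

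Ctsl (ENSMUSG00000021477, chr13:64359337-64370890) encodes cathepsin L, an endopeptidase that degrades the invariant chain in cortical TEC. The non-tuft-like libraries held 273.9, 647 and 629 CPM, against 88.5, 130 and 175.6 CPM in the tuft-like ones. Non-tuft-like replicate 1 held less than the other libraries of its group and still exceeded every tuft-like library. The log2 fold change was -1.98 (standard error 0.41, 95% interval -2.89 to -1.07, edgeR FDR 0.0358), and without non-tuft-like replicate 1 it was -2.30. Leaving out any 1 of 4 libraries (non-tuft-like 2 and 3, tuft-like 1 and 2) ended the call (edgeR FDR up to 0.176). An antisense gene, Gm47123, covers 1742 of the 6489 exonic bp of Ctsl and was counted at 0 in every library. Whether counting used the strand is not given in the sources used here. Gm49230, a processed pseudogene on the same strand, shares 395 of the 6489 bp and was also counted at 0. Reads within those bases could have been set aside as ambiguous.

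Non-tuft-like replicate 1 was the lowest of its group for Ctsl, and also for 4 of 7 cortical TEC genes, 8 of 8 keratinocyte genes and 2 of 5 general TEC genes (Epcam, at 229.5, 771 and 930 CPM, and Krt5). It was also the lowest for 8 of 15 macrophage and dendritic cell, 4 of 6 fibroblast and 3 of 5 endothelial genes. Some of the genes so counted were at or near 0 in it, such as C1qa and C1qb (0 CPM) and Lum (0.0316 CPM), where the order of libraries means little. For mature mTEC the count was 2 of 7, for thymocytes 2 of 8, for B cells 1 of 5 and for tuft cells 1 of 12. The share over all genes was not computed. Prss16, a serine protease of cortical TEC, stood at 30.5, 170.3 and 124.8 CPM in the non-tuft-like libraries, and Psmb11, the thymoproteasome subunit of cortical TEC, at 11.6, 68.9 and 43.0 CPM. Krt10, a keratin of suprabasal keratinocytes, had 92.9, 760 and 944 CPM. Of the 7 cortical TEC genes listed, 1 was called lower in tuft-like mTEC, and their summed level was 331.7 to 654 CPM in the non-tuft-like and 175.5 to 228.3 CPM in tuft-like libraries. Of the 8 keratinocyte genes 4 were called lower, and their sum was 3232 to 5370 CPM against 136.1 to 1310 CPM. Ly75, Dll4 and Enpep of the cortical list were not lowest in non-tuft-like replicate 1. The part of these cell types in the level of Ctsl was not tested.

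Ctsh (ENSMUSG00000032359, chr9:90054152-90076089) encodes cathepsin H, an aminopeptidase known for processing surfactant protein in the lung. Its levels of 260.7, 293.8 and 231.9 CPM in the non-tuft-like libraries were close together. The tuft-like libraries had 42.1, 68.8 and 108.5 CPM, so that even the highest of them lay far under the lowest non-tuft-like value. On the log2 scale the change was -1.84 (standard error 0.36, 95% interval -2.64 to -1.04, edgeR FDR 0.0278). Leaving out any 1 of 3 libraries (non-tuft-like 1 and 2, tuft-like 2) ended the call (edgeR FDR up to 0.150).

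Ctsd (ENSMUSG00000007891, chr7:142375911-142388038) encodes cathepsin D, the abundant aspartic endopeptidase of lysosomes. It was the most abundant of the 9 genes in non-tuft-like mTEC by CPM, at 742, 924 and 778, and each tuft-like library was below these values, at 211.6, 256.7 and 397.3 CPM. The log2 fold change of -1.50 (standard error 0.34, 95% interval -2.25 to -0.75) was not called by edgeR's quasi-likelihood test (FDR 0.0546). It was called under 9 of 15 alternative settings, including DESeq2, limma voom and the likelihood ratio test, and without tuft-like replicate 3 (FDR 0.00843). Without any 1 of the other 5 libraries it was not called (edgeR FDR 0.0822 to 0.403). The gene Gm49369 on the same strand shares 808 of its 2351 exonic bp and was counted at 0 throughout, and reads within those bases could have been set aside as ambiguous in all 6 libraries.

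**Figure D2:**
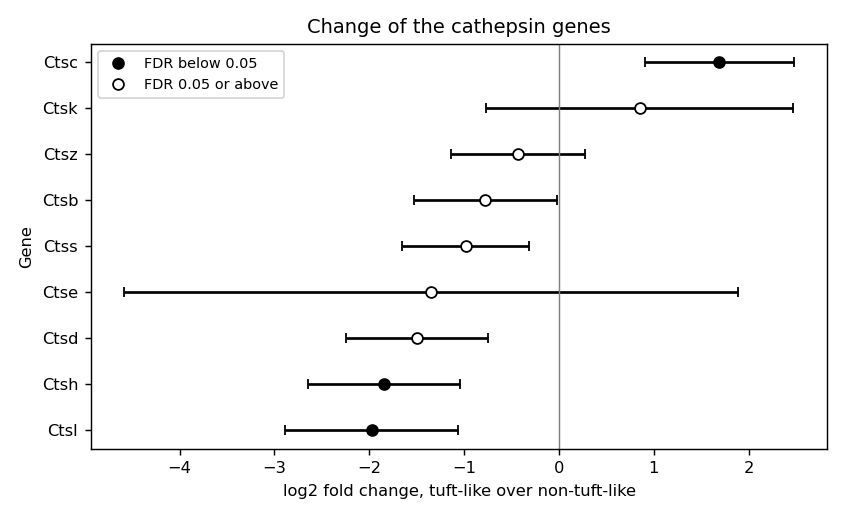
log2 fold change of each cathepsin gene, tuft-like over non-tuft-like mTEC, with bars for the approximate 95% interval and filled points for an FDR below 0.05. Ctsc (1.69) lies above 0 and Ctsh (-1.84) and Ctsl (-1.98) below it with filled points, while the intervals of Ctsb, Ctss and Ctsd also lie below 0 without passing the adjusted threshold.

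Ctss, Ctsb and Ctsz were lower in the mean by smaller amounts. Ctss (ENSMUSG00000038642, chr3:95526786-95556403) encodes cathepsin S, the protease that removes the invariant chain in most antigen-presenting cells. It had 104.7, 131.0 and 94.9 CPM in the non-tuft-like and 41.4, 52.9 and 73.1 CPM in the tuft-like libraries, which did not overlap. Its log2 change was -0.98 (standard error 0.30, 95% interval -1.65 to -0.31, edgeR FDR 0.191). Ctsb (ENSMUSG00000021939, chr14:63122462-63145923) encodes cathepsin B, a cysteine protease that is both an endopeptidase and a carboxydipeptidase. At 726, 666 and 634 CPM against 261.4, 380.7 and 542 CPM its libraries did not overlap either, although tuft-like replicate 3 came near the lowest non-tuft-like one. The log2 fold change of -0.77 had an interval of -1.53 to -0.02 (edgeR FDR 0.522), and 774 of its 6051 exonic bp overlap Fdft1 on the other strand. Fdft1 was counted at up to 4279 in a library, and its part in the count of Ctsb was not tested. Ctsz (ENSMUSG00000016256, chr2:174427493-174439039) encodes cathepsin Z, also called cathepsin X, a carboxypeptidase. It had 404, 415.1 and 324.0 CPM in the non-tuft-like and 216.7, 240.8 and 389.5 CPM in the tuft-like libraries, and tuft-like replicate 3 exceeded non-tuft-like replicate 3. Its log2 change was -0.43 with an interval of -1.14 to 0.27 (edgeR FDR 1), so neither a fall of the size seen for Ctss nor a small rise lies outside the interval.

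Ctsk and Ctse were the least abundant of the 9 genes, and both varied widely between libraries. Ctsk (ENSMUSG00000028111, chr3:95499256-95509362) encodes cathepsin K, the collagen-degrading protease of osteoclasts. It had 311, 126 and 217 counts in the non-tuft-like and 377, 436 and 243 in the tuft-like libraries, or 6.46 ± 3.58 against 11.7 ± 4.53 CPM, and the libraries overlapped (log2 fold change 0.85, interval -0.77 to 2.47, edgeR FDR 1). Ctse (ENSMUSG00000004552, chr1:131638306-131675505) encodes cathepsin E, an aspartic protease of endosomes. Its 190, 158 and 105 counts in the non-tuft-like libraries compare with 92, 40 and 1 in the tuft-like ones. Per kb of exon, Ctse stood at 1.87, 0.989 and 0.122 times the level of 1406 olfactory receptor genes in tuft-like replicates 1, 2 and 3, and at 2.39 to 10.2 times that level in the non-tuft-like libraries. The log2 fold change of -1.35 had an interval of -4.58 to 1.89 (edgeR FDR 1), so neither a large fall nor a rise can be told from these counts. The other 8 genes stood at 8.41 times that level or more in every library.

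Levels of different genes can be compared per length of exon. In CPM per kb of the union of exons, Ctsd (346.4 ± 40.9) and Ctsz (264.4 ± 34.5) led in non-tuft-like mTEC, followed by Ctsb (111.5 ± 7.71), Ctss (81.1 ± 13.7), Ctsl (79.6 ± 32.4), Ctsh (58.3 ± 6.88) and Ctsc (43.8 ± 10.2), with Ctsk (4.28 ± 2.37) and Ctse (1.34 ± 0.482) far below. Among neighbours in this order, Ctss and Ctsl, Ctsl and Ctsh, and Ctsh and Ctsc lay within each other's spread. Compared within each library, Ctsh exceeded Ctsc in all of them, while the place of Ctsl changed between libraries. In tuft-like mTEC the order was Ctsz (195.9 ± 64.9), Ctsc (141.4 ± 42.5), Ctsd (122.7 ± 41.2), Ctsb (65.2 ± 23.2), Ctss (41.1 ± 11.8), Ctsl (20.2 ± 6.71), Ctsh (16.3 ± 7.43), Ctsk (7.72 ± 2.996) and Ctse (0.526 ± 0.611). Most neighbours lay within each other's spread there, and Ctss and Ctsl, and Ctsk and Ctse, did not. Within each tuft-like library, however, the same order held, except that Ctsk (10.3) exceeded Ctsh (9.36) in tuft-like replicate 1.

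The length chosen matters for this order. The exons of Ctsl add up to 6489 bp over 7 transcripts, while its principal transcript has 1971 bp. Per kb of the principal transcript of each gene, a length chosen after the lengths were seen, Ctsc led in tuft-like mTEC (329.5 ± 99.1) and stood 6th in non-tuft-like mTEC (102.0 ± 23.8). On that scale Ctsl moved up to 262.2 ± 106.8 in non-tuft-like mTEC, level with Ctsz, against 66.6 ± 22.1 in tuft-like mTEC. On either scale Ctsd led in non-tuft-like mTEC.

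**Figure D3:**
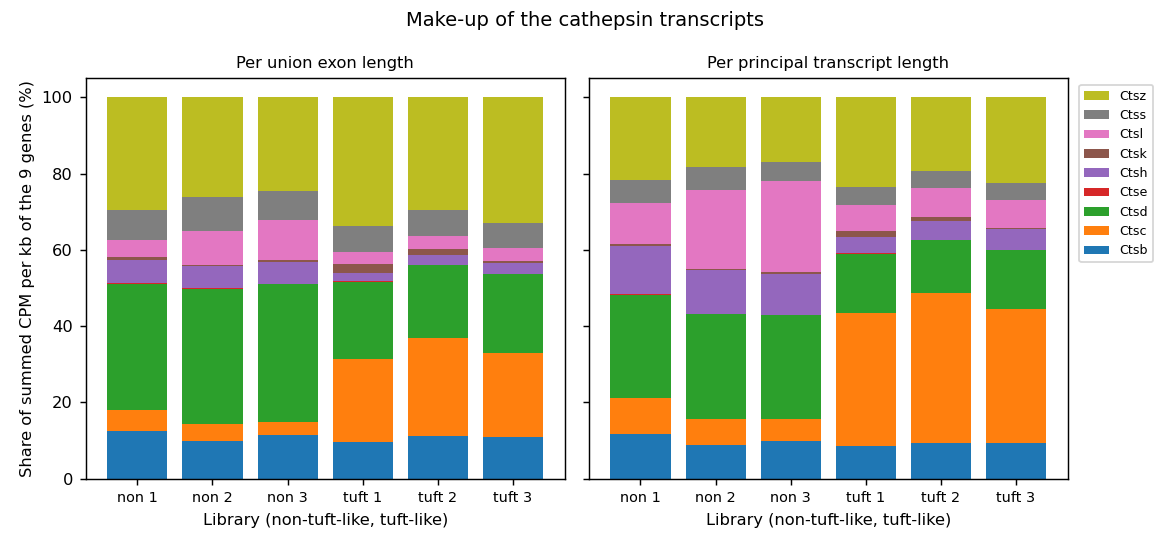
Share of each gene in the summed CPM per kb of the 9 cathepsin genes (%), one bar per library, with lengths from the union of exons on the left and from the principal transcript on the right. On both scales the share of Ctsc is larger in the 3 tuft-like bars than in any non-tuft-like bar.

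As a share of the summed per-length level of the 9 genes, Ctsc made up 3.53% to 5.47% in the non-tuft-like and 21.7% to 25.7% in the tuft-like libraries on the union of exons. On the principal transcripts these shares were 5.64% to 9.42% and 34.97% to 39.4%. Ctsd went the other way, from 33.1% to 36.1% of the sum in non-tuft-like to 19.2% to 20.6% in tuft-like libraries on the union of exons. Shares of one sum are not independent of each other, so these values describe the make-up and carry no test. The summed level of the 9 genes was 2830 to 3354 CPM in the non-tuft-like and 1443 to 2746 CPM in tuft-like libraries, and the groups did not overlap.

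Within the tuft-like group 7 of the 9 genes put the libraries in the same order. Tuft-like replicate 1 was the lowest and tuft-like replicate 3 the highest library for Ctsc, Ctsd, Ctsb, Ctsz, Ctsl, Ctsh and Ctss alike, the gene that rose and those that were lower included. Reads that fell on no annotated gene (61.6%, 47.6% and 19.7% in tuft-like replicates 1, 2 and 3) and the background on olfactory receptor genes (15.5, 12.8 and 2.59 counts per kb of exon) were ordered the opposite way. Their part in this spread was not tested. For Ctsk and Ctse the order was reversed, with the highest level in tuft-like replicate 1. The rising order was not particular to the cathepsins, and the share of all genes that had it was not computed. Epcam (248.0, 784 and 1041 CPM) and Cd74 (1148, 1523 and 2512 CPM) rose from tuft-like replicate 1 to 3 as well. The protease gene Tpp1, described below, ran the other way (81.2, 69.6 and 37.8 CPM).

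Ratios of counts within a library do not depend on its scaling. The ratio of Ctsc to Ctsb was 2.15, 2.23 and 1.95 in tuft-like replicates 1, 2 and 3, a narrow range beside that of either gene, and 0.418, 0.408 and 0.297 in the non-tuft-like replicates. Ctsc exceeded Ctsl by 6.35, 6.53 and 6.001 times in the tuft-like libraries, against 1.11, 0.420 and 0.299 times in the non-tuft-like ones. Ctsc to Ctsd stood at 2.65 to 3.31 in tuft-like and 0.242 to 0.409 in non-tuft-like libraries, and Ctsc to Ctsz at 2.59 to 3.53 and 0.581 to 0.751. In each of these pairs the groups did not overlap, by a wide margin. With Ctsb, Ctsl and Ctsd this was fixed by the single levels, since Ctsc was higher and these genes lower without overlap.

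The ratio of Ctsl to Ctss, the proteases associated with cortical and medullary epithelium, was 2.62, 4.94 and 6.63 in the non-tuft-like libraries. It was 2.14, 2.46 and 2.40 in the tuft-like libraries, lower in each, although non-tuft-like replicate 1 lay close to them. On the log2 scale the difference was -0.92. The ratio of Ctsd to Ctsl overlapped, at 1.24 to 2.71 in non-tuft-like and 1.97 to 2.39 in tuft-like libraries. Of the 10 ratios computed, 8 gave an exact permutation p of 0.10 (two-sided), or 0.125 after Benjamini-Hochberg adjustment over the 10. A p of 0.10 is the smallest that 3 against 3 libraries allow, and Ctsd to Ctsl (0.40) and Cstb to Ctsl (0.30) were above it. Where Ctsc stands over Ctsb, Ctsd, Ctsl or Ctss, the value follows from the separate levels of the single genes and adds no further test.

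**Figure D4:**
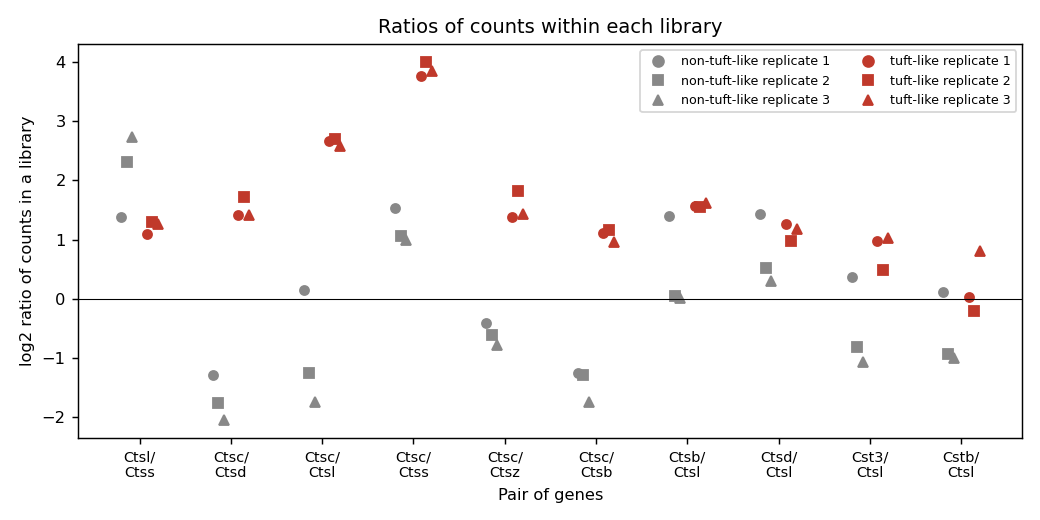
log2 ratio of the counts of 2 genes within each library for 10 pairs, with grey symbols for non-tuft-like and red symbols for tuft-like mTEC and a symbol shape for each replicate number. The 5 ratios with Ctsc on top separate the groups by the widest gaps, and the tuft-like points of Ctsc to Ctsl lie between 2.59 and 2.71.

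Other cathepsin genes were counted too. Of 14 further genes with that name, 9 were tested and 0 were called by edgeR's quasi-likelihood test, with 1 (Ctso) at an unadjusted p under 0.05, 1 called by DESeq2 and a median log2 fold change of 0.38 over the 9, against 0.02 over all genes tested. The most abundant was Ctsa, a serine carboxypeptidase that protects lysosomal sialidase and galactosidase, at 479 ± 23.1 CPM in the non-tuft-like and 621 ± 238 CPM in the tuft-like cells (log2 fold change 0.38, edgeR FDR 1). Ctso stood at 66.0, 115.3 and 58.4 CPM against 145.1, 158.8 and 201.1 CPM, with no overlap (log2 fold change 1.07, edgeR FDR 0.181). The members of the placental cluster (Cts3, Cts6, Cts7, Cts8, Ctsj, Ctsll3, Ctsm, Ctsq and Ctsr) had group means of at most 2.30 CPM.

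Among the inhibitors of cysteine cathepsins, Cst6 fell in tuft-like mTEC. Cst6 encodes cystatin E/M, which inhibits cathepsin L and legumain and is known from the skin. Its levels were 910, 1315 and 935 CPM in the non-tuft-like and 185.7, 128.5 and 298.2 CPM in the tuft-like libraries, a fall on the log2 scale of 2.37 (standard error 0.39, edgeR FDR 0.0113), and the call was lost without non-tuft-like replicate 2 or without the tuft-like replicate of that number (edgeR FDR up to 0.0971). It was the 1 called gene of 11 tested, whose median log2 fold change was -0.89. Cst3, the secreted cystatin C, had 341.2 ± 35.7 against 237.1 ± 103.7 CPM (log2 fold change -0.52, edgeR FDR 0.961), and Cstb, the cytosolic cystatin B, 315.9 ± 21.7 against 170.6 ± 120.1 CPM (-0.89, edgeR FDR 0.658). The libraries of both overlapped. The keratinocyte genes described above were lower in tuft-like mTEC together with Cst6, and their part in its level was not tested.

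Of 10 other proteases and helpers of the endosome and lysosome, 0 were called by edgeR's quasi-likelihood test, 3 by DESeq2 and 0 by limma voom, and 5 had an unadjusted p under 0.05, and their median log2 change was -0.56. The highest of these in the mean was Tpp1, a tripeptidyl peptidase, at 135.1 ± 18.7 CPM in the non-tuft-like and 62.9 ± 22.5 CPM in the tuft-like cells (log2 fold change -1.10, edgeR FDR 0.165). For Prss16 the log2 difference was -2.01 (edgeR FDR 0.0956). Ifi30, which encodes the thiol reductase GILT that opens disulphide bonds of antigens for cathepsins, stood at 59.1 ± 15.5 and 21.5 ± 6.23 CPM (-1.46, edgeR FDR 0.0794). Of the 10 genes 8 were lower and 2 higher in tuft-like mTEC. The largest change of the list was a rise, that of Cpvl, from 2.06 ± 1.45 to 10.3 ± 3.56 CPM without overlap (log2 fold change 2.32, edgeR FDR 0.374).

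The rest of the lysosome gave no such shift of its median. Over 24 other hydrolases and lipid-handling proteins of the lysosome the median log2 fold change was -0.01, with 11 genes higher and 13 lower, 0 called by edgeR's quasi-likelihood test, 3 by DESeq2 and 1 by limma voom, and 7 at an unadjusted p under 0.05. Npc2, a cholesterol carrier and the one of highest mean over all 6 libraries, had 302.6 ± 44.5 against 190.7 ± 82.8 CPM (log2 fold change -0.67, edgeR FDR 0.720). The libraries did not overlap for 8 of the 24 genes, against 16% of all genes tested. Among genes at the levels of these hydrolases the share was higher, at 27.4% for a mean of 10 to 100 CPM and 31.5% above 100 CPM. Among these 8 the log2 fold change ran from -1.71 (Gm2a, edgeR FDR 0.0609) to 1.06 (Man2b1, edgeR FDR 0.197), so single genes moved both ways around the median. Over 13 genes of lysosomal targeting, membrane and control, such as the mannose 6-phosphate receptors and Tfeb, the median was -0.00, with 0 called by edgeR, 1 each by DESeq2 and limma voom, and 3 at an unadjusted p under 0.05. Psap, the precursor of the saposins, led that list at 1244 ± 146 and 1032 ± 332 CPM (-0.27, edgeR FDR 1). For 4 of the 13 the libraries did not overlap, beside the same shares of 16%, 27.4% and 31.5%. Their changes ran from -1.06 (Lamp2, edgeR FDR 0.157) to 0.62 (Sort1, edgeR FDR 0.542).

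The MHC class II genes, whose products meet the cathepsins in the endosome, were mostly lower in tuft-like mTEC. Of 10 tested, 8 were called lower, against 0.951% of all genes tested, and the median log2 fold change was -2.25. H2-DMb1 (log2 fold change -0.42, edgeR FDR 1, overlapping libraries) and H2-Ob (-3.27, edgeR FDR 0.183) were not called. With 1 library left out the count was 3 without non-tuft-like replicate 1 or 2, 4 without tuft-like replicate 2 and 5 without tuft-like replicate 1. H2-DMb2, a chain of the peptide-exchange factor H2-M, fell by 3.65 (edgeR FDR 0.000886), Ciita, the class II transactivator, by 2.97 (edgeR FDR 0.00114), H2-Oa, a chain of the H2-M modulator H2-O, by 2.87 (edgeR FDR 0.00197) and Cd74, the cathepsin substrate, by 2.35, from 8821 ± 1020 to 1727 ± 704 CPM (edgeR FDR 0.0372). Both populations were gated as low in MHC class II protein.

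**Figure D5:**
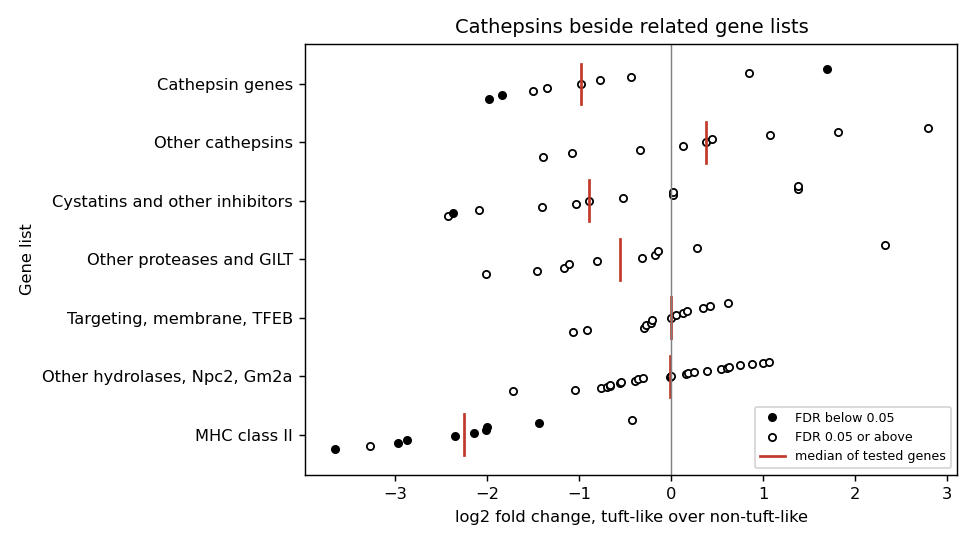
log2 fold change, tuft-like over non-tuft-like mTEC, of the tested genes in each list, with filled points for an FDR below 0.05 and a red line at the median. The medians of lysosomal targeting and of other hydrolases lie near 0 (-0.00 and -0.01), and those of the 9 cathepsin genes (-0.98) and of MHC class II genes (-2.25) lie below it.

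Macrophages and dendritic cells are rich in cathepsins. The study gated its epithelial cells as negative for CD45, which these cells carry, and positive for EpCAM1. The summed level of 15 such genes was 258.1 to 377.9 CPM in the non-tuft-like and 182.8 to 243.4 CPM in tuft-like libraries, of which Lyz2 alone held 222.7 ± 82.2 and 145.3 ± 29.6 CPM. The defining genes C1qa, Fcgr1 and Tyrobp were at or below 3.31 CPM in every library, and Adgre1 at or below 5.17 CPM. Cd68, a lysosomal membrane protein of macrophages, was the 1 gene called of the 15, and fell from 39.3 ± 8.47 to 3.99 ± 0.428 CPM (edgeR FDR 0.00280). Csf1r had 3.79, 25.01 and 13.5 CPM in the non-tuft-like and 8.55, 2.72 and 14.2 CPM in the tuft-like libraries, and Ptprc, which encodes CD45, 3.41 to 11.7 against 8.31 to 33.7 CPM. The part of such cells in the cathepsin levels was not tested. Of the other cell types listed, B cell genes summed to 18.4 to 26.1 CPM in the non-tuft-like and 65.7 to 101.8 CPM in tuft-like libraries (1 of 5, Cd79b, called higher), thymocyte genes to 19.1 to 31.7 and 6.24 to 32.4 CPM (0 of 7 called by edgeR, 0 at an unadjusted p under 0.05), fibroblast genes to 46.1 to 69.0 and 38.8 to 133.3 CPM (0 of 6 called by edgeR, 0 at an unadjusted p under 0.05) and endothelial genes to 35.7 to 63.7 and 170.9 to 337.9 CPM (1 of 5, Tek, called higher). Mature mTEC genes summed to 663 to 790 and 95.96 to 115.3 CPM (3 of 7 called lower), and of 5 general TEC genes Foxn1 and Krt14 were called lower while Epcam had a log2 fold change of 0.10.

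The promoters of the genes were searched for CACGTG, the E-box core bound by TFEB and related factors that drive lysosomal genes. The window was the 250 bases before the start site given by RefSeq (GRCm38.p6), and it was at hand for 6 of the 9 genes (Ctsc, Ctsd, Ctsk, Ctsl, Ctss and Ctsz). The motif reads the same on both strands. It was found in Ctsd and Ctsl, and in 6.86% of the 27025 genes with such a window. The 30 bases around each match, on the strand of the gene, are shown with the motif in capitals.
Ctsd, chr7:142388048-142388077, minus strand: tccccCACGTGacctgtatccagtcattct
Ctsd, chr7:142387908-142387937, minus strand: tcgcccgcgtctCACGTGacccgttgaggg
Ctsl, chr13:64370739-64370768, minus strand: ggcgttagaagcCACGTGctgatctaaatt
Counted from the RefSeq start sites, the matches begin 245 and 98 bases upstream in Ctsd and 236 bases upstream in Ctsl. GENCODE M21 places the start of both genes further upstream, so that the second match of Ctsd and that of Ctsl lie inside the gene coordinates given above, and 211 of the 250 window bases of Ctsd and 48 of those of Ctsl are in annotated exons. The window of Ctsc (chr7:88277835-88278084, plus strand), the gene that rose, holds no match and is given for comparison.
Ctsc: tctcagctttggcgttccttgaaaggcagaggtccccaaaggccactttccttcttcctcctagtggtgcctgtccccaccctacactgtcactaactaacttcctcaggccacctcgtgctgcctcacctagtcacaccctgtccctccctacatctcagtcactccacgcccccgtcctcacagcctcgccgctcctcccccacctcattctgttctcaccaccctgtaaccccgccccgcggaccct
Of the other lysosomal hydrolases with a window 5 of 18 held the motif, of the targeting genes 4 of 11, of the other proteases 3 of 6, and of the inhibitors and the MHC class II genes 0 of 11 and 0 of 7. The hydrolases and targeting genes had medians near 0 in the comparison above, and no motif count was set against the fold changes.

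Each gene was last matched to the gene with the most similar profile over the 6 libraries, by Pearson's r of log2 CPM among the 11586 other genes that averaged 10 CPM or more. The closest genes were Tmem50b for Ctsc (r = 0.998), Erbb2 for Ctsl (0.998), Wls for Ctsh (0.998), Skint7 for Ctsd (0.999), Xbp1 for Ctsb (0.999), Ing1 for Ctss (0.997), 1700016L21Rik for Ctsz (0.999), Dtna for Ctsk (0.987) and Uba6 for Ctse (0.994). With 6 libraries such values are common, and 394 genes reached at least 0.95 with Ctsc and 97 with Ctsl. The points share the depth and background of their library. Among the cathepsins, Ctsd and Ctsh were most alike (r = 0.992). For the cathepsin genes whose libraries did not overlap, these values partly restate the difference between the populations. Ctsz, Ctsk and Ctse overlapped, so their values also follow the spread between libraries. Of the closest genes, Skint7 (edgeR FDR 0.0147) and Erbb2 (edgeR FDR 0.0265) were called and the others were not.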

How the data were processed

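Trimmed reads (Trimmomatic 0.36) were aligned by the authors with STAR 2.7.3a and counted per gene with HTSeq, and the deposited table holds raw counts for 3 tuft-like and 3 non-tuft-like libraries. Neither the annotation release nor the use of strand is given in the sources used here. The 5 HTSeq summary rows and 92 spike-in rows, all at 0, were left out, and 233 gene rows had no GENCODE M21 name.

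Counts were tested in R 4.3.3 with edgeR 4.0.16 (filterByExpr with a minimum count of 10, TMM, quasi-likelihood F-test, common biological coefficient of variation 1.1). The filter left 32496 genes, of which 687 were called at an FDR of 0.05. limma 3.58.1 (voom), DESeq2 1.42.0, other scalings and filters, a replicate block, subtraction of an olfactory receptor background and leaving out each library were alternatives. A count of 3, taken as the floor, was 0.062 to 0.149 CPM, for counting error only. Permutations and correlations used log2(CPM + 1).

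The members and lists were chosen with earlier results of these data known. The named genes are the 9 members, in each list up to 4 called genes of largest change and the gene of highest mean, overlapping genes, the closest profile of each member and defining markers. Ctso, Cst3, Cstb, Ifi30, Cpvl, Gm2a, Man2b1, Lamp2, Sort1, Mrc1 and Itgam were named after their values were seen.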

Additional observations from a re-analysis of the deposited data

How the results depend on the processing

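Over all genes, 687 were called, against 1045 with library sizes alone, 2023 by DESeq2, 1236 by the likelihood ratio test, 1127 without a filter, 1547 with a filter of mean 10 CPM, 1057 after background subtraction and 319 at an FDR of 0.01. Leaving out 1 library gave 376 to 922, the lowest without tuft-like replicate 2 and the highest without tuft-like replicate 3. Omitting non-tuft-like replicate 2 gave 379. Of the 9 cathepsin genes, 3 were called, against 6 with library sizes alone, 5 by DESeq2, 6 with the filter of mean 10 CPM, 6 after background subtraction and 0 at an FDR of 0.01. Leaving out 1 library gave 0 to 3: 0 without replicate 2 of either group, 1 without non-tuft-like replicate 1 (Ctsl) or 3 (Ctsh), 2 without tuft-like replicate 1 (Ctsc, Ctsh) and 3 without tuft-like replicate 3 (Ctsd, Ctsh, Ctsl). Over the related lists 9 genes were called, against 15, 18, 18 and 14 with library sizes alone, DESeq2, the 10 CPM filter and background subtraction, and 3 to 13 with 1 library left out. The causes were not tested. None of the 9 cathepsin log2 fold changes changed sign under the 15 alternatives, of which Ctse and Ctsk were tested in 14.

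With the replicate number as a block, 737 genes and 2 cathepsin genes (Ctsh and Ctsl) were called, and 6 genes of the related lists. The deviations of same-numbered libraries correlated at 0.119, 0.0115 and -0.0352 over 11593 genes, and 2 of 6 libraries correlated best with their own number, so the numbers were not taken as pairs. The 40 counts or fewer in 2 tuft-like libraries limit Ctse, and the spread between libraries limits Ctsk.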
